A study of Mus musculus with 12 samples.

Results

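The 40 genes described here are mouse genes of fatty acid oxidation and targets of the nuclear receptor PPARA, chosen by gene symbol. They were 40 of 55421 genes counted in liver RNA, and all 40 were among the 15006 genes that passed the low-count filter. The livers came from WT mice bearing tumours of E0771, a mouse mammary carcinoma line, which had been implanted into the mammary fat pad. The groups differed in housing temperature, with 4 libraries at 6 °C (numbers 1 to 4), 4 at 22 °C (numbers 5 to 8) and 4 at 29 °C (numbers 9 to 12). Mice had 1 week to adapt to that temperature, and the liver samples date from day 21. All 3 groups carried a tumour, so no group without one was compared. The labels give no age, the growth protocol names both Balb/C and C57Bl6/J mice without assigning a strain to a library, and nothing states that each library was a separate animal. The p-values therefore measure the spread between these libraries, which may be partly technical.

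Long-chain fatty acids enter the hepatocyte, are activated to acyl-CoA, and pass into mitochondria as acylcarnitines, made by the outer membrane enzyme CPT1 and turned back to acyl-CoA by CPT2. In the matrix, each round of the spiral runs through an acyl-CoA dehydrogenase, a hydratase, a hydroxyacyl-CoA dehydrogenase and a thiolase, and the dehydrogenases pass electrons to the respiratory chain through the electron transfer flavoprotein. Peroxisomes shorten very long-chain and branched fatty acids by a parallel set of enzymes. PPARA, activated by fatty acids during fasting, pairs with RXR on direct repeats of AGGTCA spaced by 1 base and raises transcription of many of these genes in liver. Mice spend much of their energy on heat at 6 °C and also at the usual 22 °C of an animal room, while 29 °C lies near thermoneutrality.

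Depth ranged between 7615585 counts in library 2 and 19001126 in library 11. Levels are given as CPM, the count scaled to the size of its library, and 3 counts, the limit a count of 0 allows for counting error alone, were 0.158 to 0.394 CPM. Libraries 1, 7, 8 and 9, at least 1 at each temperature, held 11.8 to 17.1 CPM of H2-Ea-ps, which had 0 counts in the other 8, and these 4 stood apart from the rest. A second fit therefore carried a term for this split, and its calls stand beside the main ones. Libraries 5 and 6 (22 °C) and 3 (6 °C) held the lowest shares of counts on the noncoding RNA Gm26917, at 0.667%, 0.605% and 1.66%, against 4.03 to 8.70% in the other 9. Hepatocyte markers summed to 83932 to 126224 CPM at 6 °C, 80403 to 181363 CPM at 22 °C and 70052 to 156822 CPM at 29 °C. Adipocyte and muscle markers stayed at or below 5.52 CPM in every library, with Ucp1 at 0 in all. The 12 intestinal markers summed to 774 CPM in library 11 (29 °C), against 29.2 to 33.1 CPM in the other 29 °C libraries and 12.6 to 40.6 CPM elsewhere. Neutrophil markers summed to 565, 1075, 772 and 1578 CPM in the H2-Ea-ps libraries 1, 7, 8 and 9, against 6.52 to 481 CPM in the other 8. Kupffer cell and macrophage markers reached 834 to 1033 CPM in libraries 10 to 12 at 29 °C and 490.5 CPM in library 9. They summed to 387 to 732 CPM at 6 °C and 323 to 823 CPM at 22 °C. Erythroid markers reached 405 CPM in library 10 at 29 °C, against at most 202 CPM at 6 °C. The part of these differences in the results below was not tested beyond the fits and left-out libraries given.

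All 40 genes were well expressed in liver. Their median level was 44.3 CPM per kilobase of exon, against 3.08 over all genes tested, and each of the 40 lay above that median. On the same per-length scale, averaged over 12 libraries, the highest were Phyh (350.0), which starts the alpha-oxidation of phytanic acid, Acaa2 (293), the mitochondrial thiolase, Slc27a2 (200.3), a very long-chain acyl-CoA synthetase and transporter, and Fabp1 (200.1), the liver fatty acid binding protein. The lowest were Nudt7 (9.99), Vnn1 (8.43), Pdk4 (6.07) and Hadhb (3.87). Hadha and Hadhb encode the alpha and beta subunits of the mitochondrial trifunctional protein and lie head to head on chromosome 5 with 85 bases between them, yet Hadha stood at 31.4 CPM per kilobase of exon. Whether reads were counted by strand is not stated in the labels or headers, so values of genes that share exon sequence are less certain. Dvl2, on the opposite strand, covers 42.9% of the exon bases of Acadvl, and Gm45233, on the same strand, covers 53.0% of those of Etfb. Acaa1a and Acaa1b are near-identical copies 182582 bases apart on chromosome 9, so reads could be split between them.

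The summed level of the 40 genes was 7679, 7671, 9099 and 9333 CPM in libraries 1 to 4 at 6 °C. It was 8539, 7911, 7884 and 7787 CPM in libraries 5 to 8 at 22 °C, and 7062, 9671, 8151 and 10608 CPM in libraries 9 to 12 at 29 °C. The 3 temperatures overlapped, and on this scale both the highest and the lowest sums fell at 29 °C. The place of library 9 as the lowest depended on the scaling, as its TMM scaling factor, 1.14, was the highest of the 12. As a share of its unscaled total count, library 9 held 0.806% on the 40 genes, against 0.803% in library 1. On that scale the lowest were library 2 at 6 °C and library 6 at 22 °C (0.758% each). The highest was still library 12 at 29 °C (0.995%). Library 9 was the lowest of the 29 °C libraries for 32 of the 40 genes, and library 1 the lowest of the 6 °C libraries for 19. Both carry H2-Ea-ps. At 22 °C the libraries divided in pairs, with libraries 5 and 6 both above 7 and 8 for 14 genes and both below them for 12. The shares of all genes with these patterns were not counted, so the counts cannot be read as particular to the 40. Over all genes tested, libraries of different pairs had a chi-square of 129 to 144 per degree of freedom. It was 12.8 between libraries 5 and 6 and 35.8 between 7 and 8. A fold between the highest and the lowest of the 12 libraries had a median of 2.24 over the 40 genes. It ran from 1.32 for Hsd17b4, the peroxisomal multifunctional enzyme of branched-chain oxidation, to 18.6 for Pdk4, a kinase that inhibits pyruvate dehydrogenase.

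**Figure D1:**
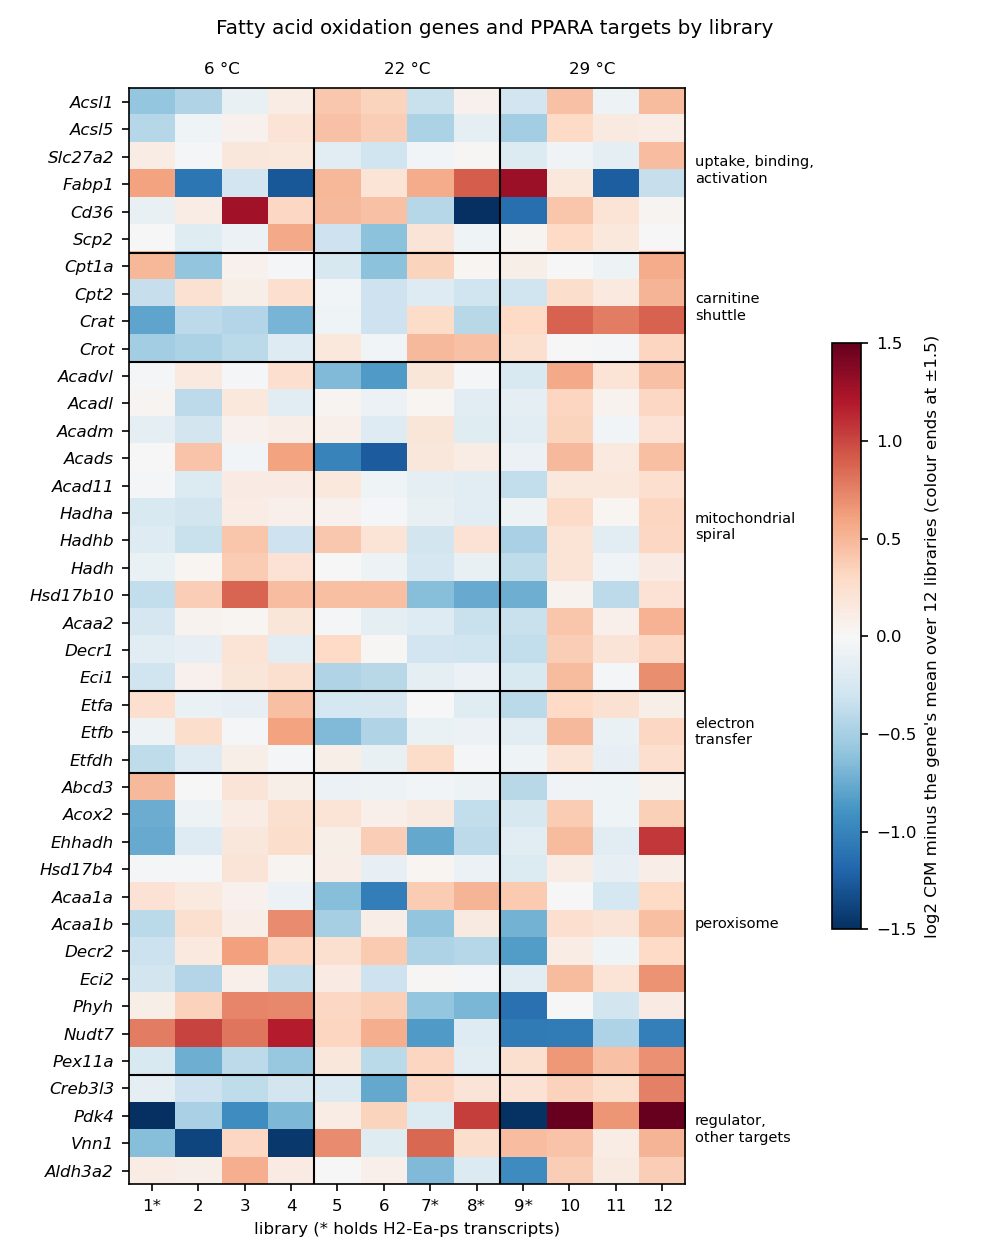
Heat map of the 40 genes (rows, by role) in the 12 libraries (columns, by housing temperature), coloured by log2 CPM relative to each gene's mean over all libraries. Library 9 is the lowest of the 29 °C libraries for 32 of 40 genes, and at 22 °C libraries 5 and 6 lie on 1 side of libraries 7 and 8 for 26 genes, above them for 14 and below for 12. The shares of all genes with these patterns were not counted.

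Between the warmest and the coldest housing, 3 of the 40 genes changed in the main fit. No gene of uptake, the mitochondrial spiral or electron transfer passed the test in it. Of these 21 genes, 0 had an unadjusted p under 0.05, against 2913 of all 15006. Over the whole set it was 9 of the 40. DESeq2, run without the low-count filter, called 0 of the 21, against 1161 of 28569 genes. Here and below, these 28569 include any gene that DESeq2's own default filtering left without an adjusted p, counted as not called. Its shares of all genes are therefore low beside those over 15006 genes. Hsd17b10 of the 21 was called with the split term and in a fit of the 8 libraries lacking H2-Ea-ps, which called 1504 of 15173 genes. Crat and Pex11a rose at 29 °C against 6 °C and Nudt7 fell, while 37 did not pass. In edgeR's quasi-likelihood test with Benjamini-Hochberg adjustment over all genes, 1.13% of genes tested were called higher and 1.39% lower at 29 °C. The median log2 fold change of the 40 was 0.12, against 0.00 over all genes tested, with 26 positive and 14 negative. The 4 libraries of each group did not overlap for 4 genes higher at 29 °C (Crat, Pex11a, Crot and Creb3l3), where 6.56% of all genes did so, and for 1 lower (Nudt7), where 6.74% did. With the split term, 5 of the 40 were called higher (Crat, Crot, Eci2, Pex11a and Creb3l3) and 3 lower (Nudt7, Phyh and Hsd17b10). The background under the split term was also larger, at 6.32% of genes higher and 6.23% lower. The 95% interval of the change lay inside 2-fold either way for 29 of the 40 genes, against 56.7% of all genes tested, and inside 1.5-fold for 14. For the other genes, changes beyond those sizes were not excluded by these libraries.

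Crat (chr2:30400471-30415813, GENCODE vM21 on GRCm38, minus strand) encodes carnitine acetyltransferase, which moves acetyl groups between CoA and carnitine. Its level was 30.0, 39.7, 38.5 and 32.3 CPM at 6 °C, 49.8, 42.1, 63.3 and 39.0 CPM at 22 °C, and 64.2, 96.4, 88.8 and 96.4 CPM at 29 °C. Every 29 °C library lay above every other library. The means were 86.5 ± 15.3 CPM at 29 °C and 35.1 ± 4.70 CPM at 6 °C (SD, n = 4 each), a 2.46-fold difference (log2 fold change 1.30, SE 0.18, adjusted p = 0.00677). Its exons share 7.63% of their bases with the antisense transcript Gm16323. In a bulk sample, more RNA per cell and more cells of a type cannot be told apart, for this gene and all others here.

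Pex11a (chr7:79735957-79743131, minus strand) encodes a membrane protein that elongates peroxisomes before they divide. It stood at 26.7, 18.7, 23.8 and 21.0 CPM at 6 °C, 35.0, 23.5, 38.9 and 27.6 CPM at 22 °C, and 37.0, 49.1, 42.4 and 50.2 CPM at 29 °C. All 29 °C libraries were above all 6 °C libraries, and the 22 °C libraries overlapped both. The change was 1.98-fold (log2 fold change 0.98, SE 0.18, adjusted p = 0.0197). The call was lost without library 3, 4 or 10, with an adjusted p of up to 0.0706, while the log2 fold change stayed between 0.94 and 1.01 in those 3 fits.

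Nudt7 (chr8:114133557-114154739, plus strand) encodes a peroxisomal diphosphatase that cleaves CoA and acyl-CoA. It showed 81.4, 97.0, 83.5 and 109 CPM at 6 °C, 60.1, 69.8, 26.5 and 42.0 CPM at 22 °C, and 23.0, 23.2, 34.8 and 23.6 CPM at 29 °C. Its 6 °C libraries were all above the other 8, and all 29 °C libraries but library 11 were below every 22 °C library. The level fell to 26.1 ± 5.76 CPM at 29 °C, against 92.6 ± 12.7 CPM at 6 °C (SD, n = 4 each), with a log2 fold change of -1.82 (SE 0.26, adjusted p = 0.00708). Crat and Nudt7 were called in all 24 alternatives tried for this comparison.

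The stretches before the start sites of Pex11a and Nudt7 are shown because these genes changed and have an entry in the RefSeq promoter table (GRCm38.p6), and that of Fabp1 because it held the motif searched. Each is 250 bases long, on the strand of the gene, and ends just before the start site. Nudt7 has 2 start sites in the table, of which the one nearer the GENCODE gene start is shown. Capitals mark matches to AGGNCANAGGNCA or AGGTCA on either strand.
Pex11a, chr7:79743132-79743381, minus strand: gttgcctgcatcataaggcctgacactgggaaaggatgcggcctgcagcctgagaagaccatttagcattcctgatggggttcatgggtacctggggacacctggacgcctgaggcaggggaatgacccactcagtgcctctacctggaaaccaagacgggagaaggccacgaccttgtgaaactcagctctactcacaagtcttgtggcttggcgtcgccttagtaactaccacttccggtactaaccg
Nudt7, chr8:114133324-114133573, plus strand: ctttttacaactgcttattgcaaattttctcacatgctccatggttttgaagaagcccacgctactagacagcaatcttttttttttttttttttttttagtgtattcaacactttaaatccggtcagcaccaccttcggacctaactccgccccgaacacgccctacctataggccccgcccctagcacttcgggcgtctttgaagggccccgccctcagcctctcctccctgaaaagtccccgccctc
Fabp1, chr6:71199629-71199878, plus strand: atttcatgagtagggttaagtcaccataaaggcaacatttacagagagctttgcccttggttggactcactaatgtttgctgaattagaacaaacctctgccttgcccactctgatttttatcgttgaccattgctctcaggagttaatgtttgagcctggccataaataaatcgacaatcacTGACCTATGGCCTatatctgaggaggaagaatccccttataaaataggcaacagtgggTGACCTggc
No match stands in the windows of Pex11a or Nudt7. In Fabp1 the bases TGACCTATGGCCT, starting 67 bases before the start site, match AGGNCANAGGNCA on the opposite strand and contain a match to AGGTCA, and a second TGACCT starts 9 bases before it. Of the 40 genes, 35 had an entry, in 40 windows, and Crat, Vnn1, Decr1, Hsd17b4 and Acaa2 were not among them. The full repeat AGGTCANAGGTCA was in 0 of the 35 and in 0.0335% of all 32851 windows, and AGGNCANAGGNCA was in Fabp1 alone of the 35 and in 0.338% of all windows. The single AGGTCA is part of the full repeat and can be part of the looser one. It was in 8 of the 35 genes (Acadm, Acadvl, Cd36, Cpt1a, Creb3l3, Fabp1, Scp2 and Slc27a2). Counted by window, it was in 8 of their 40 windows and in 14.0% of all windows. A match is a description of these letters in this window and not a site.

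**Figure D2:**
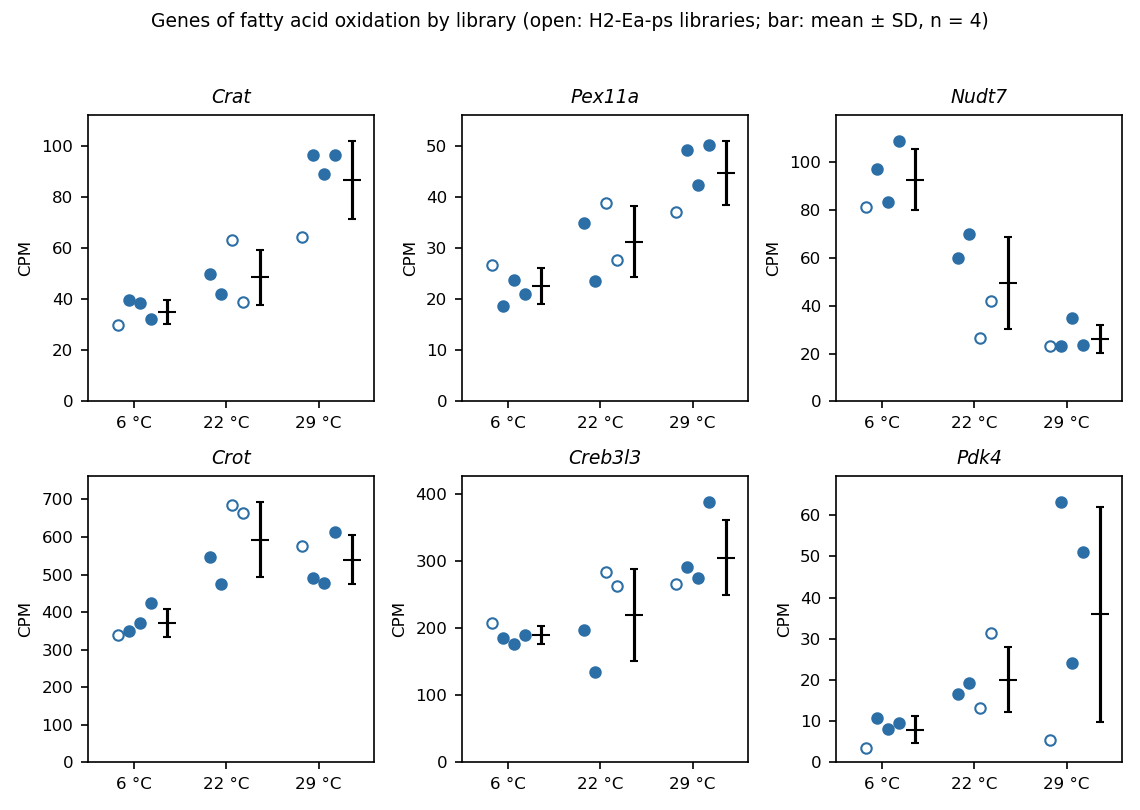
CPM of Crat, Pex11a, Nudt7, Crot, Creb3l3 and Pdk4 in each library (points, open for H2-Ea-ps libraries) at 6, 22 and 29 °C, with mean ± SD beside them (n = 4). The Crat points at 29 °C lie above all others, the Nudt7 points at 6 °C lie above all others, and Pdk4 at 29 °C spans 5.48 to 63.1 CPM.

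In fatty acid uptake, activation and binding, none of the 6 genes (Acsl1 and Acsl5, long-chain acyl-CoA synthetases; Slc27a2; Fabp1; Cd36, a fatty acid translocase of the plasma membrane; Scp2, a peroxisomal thiolase and lipid carrier) was called in any comparison. At 29 °C against 6 °C their log2 fold changes ran from -0.50 (Cd36) to 0.56 (Fabp1). Fabp1 had 146, 45.1, 78.1 and 39.6 CPM at 6 °C, 134, 111, 140.0 and 179.6 CPM at 22 °C, and 232, 107, 40.6 and 75.4 CPM at 29 °C. The 29 °C libraries alone spanned 40.6 to 232 CPM, and the lowest of the 12 was library 4 at 6 °C. Its log2 fold change was 0.56 at 29 °C against 6 °C, with a 95% interval of -0.57 to 1.69, and -0.87 at 6 °C against 22 °C (adjusted p = 0.603 and 0.519). Cd36 had 53.8, 62.9, 139.5 and 72.4 CPM at 6 °C, 82.0, 78.8, 43.3 and 19.2 CPM at 22 °C, and 26.7, 78.1, 67.5 and 60.1 CPM at 29 °C. The highest value was in library 3 at 6 °C and the lowest in library 8 at 22 °C, and the 3 groups overlapped (adjusted p = 0.610 at 29 °C against 6 °C). Its log2 fold change in that comparison was -0.12 without library 3 and -0.67 without library 10. Slc27a2 had the lowest fold between the highest and the lowest library among the 6, 1.70, with means of 802 CPM at 6 °C, 688 CPM at 22 °C and 766 CPM at 29 °C.

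In the carnitine shuttle, the main edgeR fit called 1 of 4 genes, Crat, at 29 °C against 6 °C, while DESeq2 and limma voom also called Crot. All 4 genes had positive log2 fold changes. Cpt1a, the liver CPT1 that commits fatty acids to mitochondria, had 601, 283, 446 and 418 CPM at 6 °C, 361, 278, 537 and 434 CPM at 22 °C, and 453, 423, 406 and 626 CPM at 29 °C. Each group spanned a wide and shared range, and the sign of the small change depended on single libraries. The log2 fold change at 29 °C against 6 °C was 0.13 (SE 0.25, adjusted p = 0.835), a fold of 1.09 with a 95% interval of 0.752 to 1.58. Without library 2 it was -0.04 and without library 12 it was -0.03. Cpt2, the inner-membrane partner, had a log2 fold change of 0.11 (adjusted p = 0.787). Crot, the peroxisomal carnitine octanoyltransferase that exports shortened chains, had 339.8, 351, 370.1 and 425 CPM at 6 °C, 547, 474, 686 and 663 CPM at 22 °C, and 576, 491, 478 and 612 CPM at 29 °C. Its 6 °C libraries lay below all the others. The log2 fold change was 0.54 at 29 °C against 6 °C (adjusted p = 0.0998, and 0.0253 with the split term) and -0.67 at 6 °C against 22 °C (adjusted p = 0.204).

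**Figure D3:**
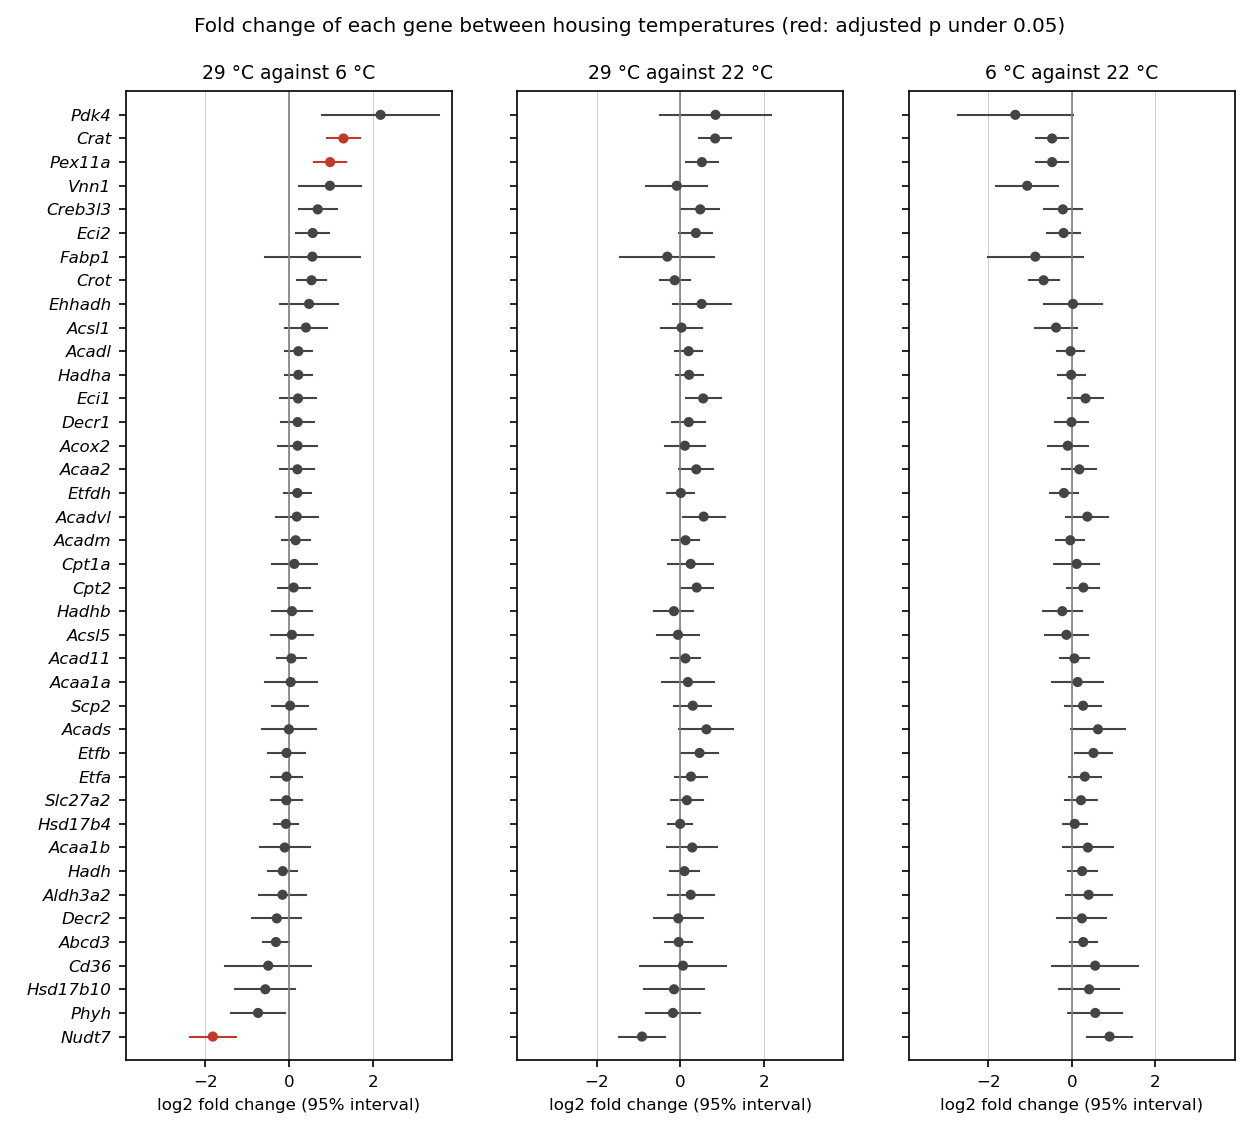
Log2 fold change with its 95% interval for the 40 genes in the 3 comparisons (29 °C against 6 °C, 29 °C against 22 °C, 6 °C against 22 °C), ordered by the change at 29 °C against 6 °C, with adjusted p under 0.05 in red. Intervals lie inside 2-fold either way for 29, 32 and 31 of the 40 genes in these comparisons, and Pdk4 reaches the highest values at 29 °C against 6 °C.

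Of the 12 genes of the mitochondrial spiral none was called in any comparison in the main edgeR fit. Other fits called Hsd17b10, Acadvl, Acads and Eci1, as given below. The log2 fold changes of the 12 genes at 29 °C against 6 °C ran from -0.57 (Hsd17b10) to 0.22, with 9 of 12 positive. Acadm, the medium-chain acyl-CoA dehydrogenase, had 134, 121, 153 and 158 CPM at 6 °C, 154, 128, 167 and 129.7 CPM at 22 °C, and 131, 185, 143 and 171 CPM at 29 °C. Its 3 groups shared one range, and the fold at 29 °C against 6 °C was 1.12, with a 95% interval of 0.886 to 1.40 (adjusted p = 0.627). Hadha averaged 302 ± 40.5 CPM at 29 °C and 259 ± 35.9 CPM at 6 °C (SD, n = 4 each; adjusted p = 0.450). Hadhb, its partner subunit, had 21.9, 19.8, 33.2 and 20.1 CPM at 6 °C, 32.9, 28.8, 20.7 and 28.9 CPM at 22 °C, and 17.8, 28.8, 22.2 and 31.0 CPM at 29 °C. Library 3 was the highest of the 12 and stood apart from the other 6 °C libraries, and the log2 fold change was 0.07 at 29 °C against 6 °C (adjusted p = 0.904). Acadl, Acad11, Hadh, Acaa2, Decr1 and Eci1, which cover long-chain dehydrogenation, short-chain hydroxyacyl dehydrogenation, thiolysis and the isomer steps for unsaturated chains, had log2 fold changes between -0.15 and 0.22 in this comparison.

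Acadvl and Acads, the very long-chain and short-chain acyl-CoA dehydrogenases, divided the 22 °C libraries. Acadvl had 231, 257, 229 and 278 CPM at 6 °C, 147, 129, 264 and 228 CPM at 22 °C, and 199, 345, 269 and 317 CPM at 29 °C. Acads had 87.5, 118, 85.0 and 133 CPM at 6 °C, 43.7, 36.8, 98.3 and 95.0 CPM at 22 °C, and 82.8, 123, 96.7 and 119 CPM at 29 °C. Libraries 5 and 6 were the lowest of the 12 for both genes, and libraries 7 and 8 lay among the 29 °C and 6 °C values. The log2 fold changes at 29 °C against 22 °C were 0.56 (adjusted p = 0.296) for Acadvl and 0.62 (adjusted p = 0.348) for Acads. In a fit of the 8 libraries lacking H2-Ea-ps counts, where libraries 5 and 6 alone stand for 22 °C, both were called in that comparison, at 1.16 and 1.49 (adjusted p = 0.00136 and 0.00109, edgeR). Eci1 was called there too, and that fit called 2594 of all 15173 genes it tested. At 6 °C against 22 °C it called Acadvl and Acads, among 1015 of all genes. Hsd17b10, a mitochondrial hydroxyacyl-CoA dehydrogenase that is also a subunit of mitochondrial RNase P, had 46.9, 78.4, 111 and 83.5 CPM at 6 °C, 82.8, 82.9, 38.8 and 35.8 CPM at 22 °C, and 36.5, 62.7, 46.2 and 70.3 CPM at 29 °C. The 4 H2-Ea-ps libraries (1, 7, 8 and 9) together held the values from 35.8 to 46.9 CPM, and library 11 at 46.2 CPM was the only other library in that range. Its log2 fold change at 29 °C against 6 °C was -0.57 (adjusted p = 0.376), and with the split term -0.55 (adjusted p = 0.0288).

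**Figure D4:**
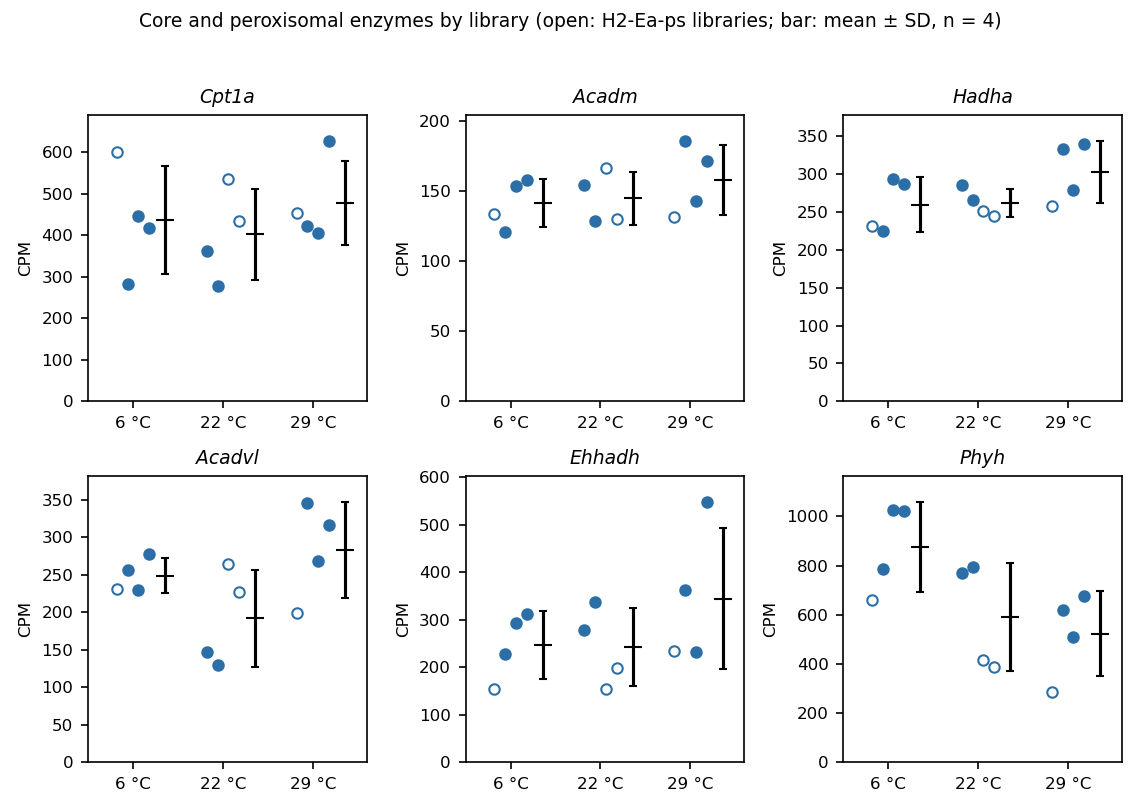
CPM of Cpt1a, Acadm, Hadha, Acadvl, Ehhadh and Phyh in each library (points, open for H2-Ea-ps libraries) at 6, 22 and 29 °C, with mean ± SD beside them (n = 4). The 6 °C and 29 °C libraries overlap for all 6 genes.

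No gene of electron transfer passed the test in the fit of all 12 libraries. Etfa and Etfb, the subunits of the electron transfer flavoprotein, and Etfdh, the dehydrogenase that hands its electrons to ubiquinone, had log2 fold changes of -0.06, -0.06 and 0.20 at 29 °C against 6 °C. Their lowest adjusted p in this comparison was 0.515. Etfb, with the exon overlap given above, averaged 31.0 ± 7.05 CPM at 6 °C and 21.6 ± 4.06 CPM at 22 °C (SD, n = 4 each), without overlap between these groups (log2 fold change 0.52, adjusted p = 0.340). In the 8 libraries lacking H2-Ea-ps, Etfb was called higher at 29 °C against 22 °C and at 6 °C against 22 °C. That fit called 2594 and 1015 of 15173 genes in these comparisons.

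Among 11 peroxisomal genes, Pex11a rose, Nudt7 fell and 9 did not pass at 29 °C against 6 °C in the main edgeR fit. With limma voom Eci2 was also called. The split term and the fit of the 8 libraries lacking H2-Ea-ps each added Eci2 and Phyh. Phyh had 659, 786, 1027 and 1024 CPM at 6 °C, 769, 794, 415 and 387 CPM at 22 °C, and 285, 618, 511 and 677 CPM at 29 °C. Its H2-Ea-ps libraries were the lowest at 6 °C, the 2 lowest at 22 °C and the lowest at 29 °C. The log2 fold change at 29 °C against 6 °C was -0.74 (SE 0.30, adjusted p = 0.197), and with the split term it was -0.80 (adjusted p = 0.00383). Ehhadh, the bifunctional enzyme of the classical peroxisomal pathway and a well-known PPARA target in rodents, had 155, 228, 294 and 314 CPM at 6 °C, 278, 339, 154 and 199 CPM at 22 °C, and 235, 363, 233 and 547 CPM at 29 °C. The highest values were in libraries 12 and 10 at 29 °C, and libraries 9 and 11 lay within the range of the colder groups (log2 fold change 0.48, adjusted p = 0.445). Without library 12 the log2 fold change was 0.16, and with the split term and no library 11 it was 0.68 and called (adjusted p = 0.0275). Eci2, an enoyl-CoA isomerase, averaged 129.6 ± 31.6 CPM at 29 °C and 87.6 ± 14.4 CPM at 6 °C (SD, n = 4 each), with an adjusted p of 0.113, or 0.0425 with the split term. The log2 fold change of Abcd3, the peroxisomal importer of fatty acyl-CoA, was -0.31, and that of Decr2, the peroxisomal dienoyl-CoA reductase, was -0.29 (adjusted p = 0.266 and 0.601). The remaining 4 (Acox2, an oxidase of branched chains and bile acid precursors, Hsd17b4, and the thiolases Acaa1a and Acaa1b) had log2 fold changes between -0.10 and 0.20.

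The 4 regulators and other targets had the highest median change of any role at 29 °C against 6 °C, 0.83 on the log2 scale. None was called in the main edgeR fit, while DESeq2 called Creb3l3 and Pdk4 and limma voom called Creb3l3. The edgeR fit of the 8 libraries lacking H2-Ea-ps called Creb3l3 and Pdk4, among 1504 of 15173 genes. Pdk4 had 3.38, 10.9, 8.02 and 9.54 CPM at 6 °C, 16.5, 19.2, 13.2 and 31.4 CPM at 22 °C, and 5.48, 63.1, 24.1 and 51.0 CPM at 29 °C. Libraries 10 and 12 were the highest of the 12, while library 9, also at 29 °C, lay among the 6 °C values. The log2 fold change was 2.19 (SE 0.63, adjusted p = 0.0934), with a 95% interval of 0.79 to 3.58. Without library 9 it was 2.55 with an adjusted p of 0.0161. Vnn1, a pantetheinase that breaks down pantetheine and is a PPARA target in mouse liver, had 11.7, 7.04, 22.6 and 6.69 CPM at 6 °C, 29.9, 16.1, 33.1 and 22.0 CPM at 22 °C, and 25.1, 24.6, 19.7 and 26.0 CPM at 29 °C. Library 3 at 6 °C stood at 22.6 CPM, with the other 6 °C libraries at 6.69 to 11.7 CPM. The log2 fold change was 0.98 at 29 °C against 6 °C (adjusted p = 0.141), and without library 3 it was 1.48 (adjusted p = 0.0477). Creb3l3, a liver transcription factor that works with PPARA on lipid genes, averaged 305 ± 55.8 CPM at 29 °C and 189 ± 13.1 CPM at 6 °C (SD, n = 4 each), without overlap (adjusted p = 0.101, or 0.0223 with the split term). Aldh3a2, the fatty aldehyde dehydrogenase, had a log2 fold change of -0.16 (adjusted p = 0.791).

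In the main edgeR fit none of the 40 genes was called at 29 °C against 22 °C, and neither was any other gene, so the background was 0%. Unadjusted p was under 0.05 for 8 of the 40 and for 2241 of all 15006 genes. DESeq2, run without the low-count filter, called 313 of 28569 genes, and limma voom called 5 of 15006. The 40 had a median log2 fold change of 0.19, against -0.00 over all genes, with 29 positive and 11 negative, and their lowest adjusted p was 0.134, for Crat. Crat averaged 86.5 ± 15.3 CPM at 29 °C and 48.5 ± 10.8 CPM at 22 °C (SD, n = 4 each; log2 fold change 0.83, SE 0.18), and it was the one gene of the 40 whose libraries did not overlap in the higher direction, where 3.89% of all genes did so. No gene of the 40 was lower without overlap, where 3.79% of all genes were. With the split term Crat was called higher (adjusted p = 0.0346) and Nudt7 lower (-0.99, adjusted p = 0.0262), against backgrounds of 1.56% and 1.88% of genes. Nudt7 without that term had a log2 fold change of -0.92 (adjusted p = 0.171), and Pex11a 0.51 (adjusted p = 0.228). DESeq2 also called Crat and Nudt7. The fit of the 8 libraries lacking H2-Ea-ps called 11 of the 40 and 2594 of 15173 genes. In the main fit the 95% interval lay inside 2-fold for 32 of the 40 genes, against 59.1% of all genes.

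At 6 °C against 22 °C the main edgeR fit called none of the 40, among 5 genes called of all tested, or 0.0333%. Unadjusted p was under 0.05 for 6 of the 40 and for 1787 of all genes. The split term called 0 of the 40 and 0.367% of all genes. DESeq2, run without the low-count filter, called 1 of the 40 (Crot) and 160 of 28569 genes. The median of the 40 was 0.10, against -0.02 over all genes, with 23 positive and 17 negative, and the lowest adjusted p was 0.204, for Crot. Abcd3, Aldh3a2, Etfb and Nudt7 were higher at 6 °C without overlap, where 3.53% of all genes were, and Pdk4 and Crot were lower, where 2.81% were. Nudt7 averaged 92.6 ± 12.7 CPM at 6 °C and 49.6 ± 19.2 CPM at 22 °C (SD, n = 4 each), with a log2 fold change of 0.90 (SE 0.25, adjusted p = 0.250). Pdk4 averaged 7.96 ± 3.27 CPM at 6 °C and 20.1 ± 7.91 CPM at 22 °C, with a log2 fold change of -1.35 (SE 0.63, adjusted p = 0.431), and Vnn1 12.0 ± 7.40 CPM and 25.3 ± 7.72 CPM at the same temperatures, with a log2 fold change of -1.07 (SE 0.35, adjusted p = 0.281). The interval lay inside 2-fold for 31 of the 40, against 61.0% of all genes.

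The order of the 3 means differed between genes of one pathway. Means increased with temperature for 12 of the 40 (Crat, Pex11a, Creb3l3 and Pdk4 among them), where 20.8% of all genes did so, and decreased for 6 (Nudt7, Phyh, Hsd17b10, Abcd3, Hsd17b4 and Decr2), where 18.6% did. They were lowest at 22 °C for 17 genes, where 28.9% of all genes were, and highest at 22 °C for 5 (Acsl5, Fabp1, Crot, Hadhb and Vnn1), where 31.7% were. The comparisons share libraries, so these orders are a description. For Nudt7 the neighbours 6 °C and 22 °C did not overlap while 22 °C and 29 °C did. For Crat it was 22 °C and 29 °C that did not overlap, and for Pex11a neither pair was free of overlap.

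A wider list of 53 genes of the same biology, none of them among the 40, was chosen with earlier results of these data known. Its counts beside the shares of all genes are therefore a description and no test. It gave 5 higher, 1 lower and 47 that did not pass at 29 °C against 6 °C in the main edgeR fit, against 1.13% and 1.39% of all genes. DESeq2 and limma voom called 12 each in that comparison, against 1161 of 28569 and 1090 of 15006 genes. In the main edgeR fit the list gave 0 calls at 29 °C against 22 °C and 0 at 6 °C against 22 °C. Unadjusted p was under 0.05 there for 18 and 14 of its genes, against 2241 and 1787 of all 15006. DESeq2 called 5 and 0 there, against 313 and 160 of 28569 genes. With the split term the list gave 8 higher and 9 lower at 29 °C against 6 °C, against 6.32% and 6.23% of all genes. It gave 3 higher and 2 lower at 29 °C against 22 °C, against 1.56% and 1.88%, and 0 at 6 °C against 22 °C, against 0.367%. The 6 calls of the main edgeR fit were all among 15 further PPARA targets, with a median of 0.68. That fit called 0 of 38 regulators, malonyl-CoA enzymes, transporters, ketone synthesis enzymes and other peroxisomal genes. Of these 38, DESeq2 and limma voom each called Ppargc1a, Ppargc1b, Acbd5 and Cat, and the split term called these and Acaca, Slc27a5 and Acsl4. The fit of the 8 libraries lacking H2-Ea-ps called Ppargc1b, Acaca, Acsl4, Acbd5, Ech1 and Cat of them, among 1504 of 15173 genes. Plin2, which coats lipid droplets, had 399, 690.1, 570.2 and 963 CPM at 29 °C, against 126, 243, 200.4 and 199 CPM at 6 °C, with a log2 fold change of 1.77 (SE 0.28, adjusted p = 0.0120). The 2 groups did not overlap, and the call held in all 24 alternatives. G0s2, an inhibitor of the lipase ATGL, had 36.8, 142, 79.0 and 191 CPM at 29 °C, against 7.49, 20.7, 28.0 and 8.53 CPM at 6 °C, with a log2 fold change of 2.80 (SE 0.56, adjusted p = 0.0338). These groups did not overlap either. Hilpda, also an ATGL inhibitor of lipid droplets, had 2.24, 19.2, 7.09 and 7.79 CPM at 29 °C, against 0.720, 0.798, 0.477 and 2.84 CPM at 6 °C. Its log2 fold change was 2.89 (adjusted p = 0.0459 in edgeR), with low levels at 6 °C and overlap between these groups. Txnip, an arrestin-like protein that lowers glucose uptake, rose by 2.41 on the log2 scale. Fgf21, a hormone of the fasted liver, had 13.1, 43.5, 25.4 and 27.6 CPM at 29 °C, against 1.4, 0, 0.794 and 0 CPM at 6 °C. Its log2 fold change of 5.45 (adjusted p = 0.0228) rests on counts near 0 at 6 °C and so depends on the small prior count of the fit. Acadsb, a branched short-chain acyl-CoA dehydrogenase, fell by 0.64 on the log2 scale. The calls of Fgf21, G0s2, Hilpda, Txnip and Acadsb were lost in 4, 10, 12, 9 and 8 of 24 alternatives, in this order.

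The receptor and its partner RXRA did not pass the test. Ppara had 122, 126, 139 and 169 CPM at 29 °C, against 255, 118, 161 and 133 CPM at 6 °C, with a log2 fold change of -0.26 (SE 0.25, adjusted p = 0.608), and library 1 at 6 °C was the highest of the 12. Its partner Rxra had a log2 fold change of -0.18 (adjusted p = 0.574). The coactivators Ppargc1a and Ppargc1b had log2 fold changes of -0.80 and -1.02 (adjusted p = 0.0606 and 0.0588), both lower at 29 °C without overlap, and both were called by DESeq2, by limma voom and in edgeR with the split term (adjusted p = 0.0130 and 0.0142). Cat, peroxisomal catalase, had a log2 fold change of -0.70 (adjusted p = 0.0842), and it was called with the split term (-0.72, adjusted p = 0.00415), by DESeq2 and by limma voom.

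**Figure D5:**
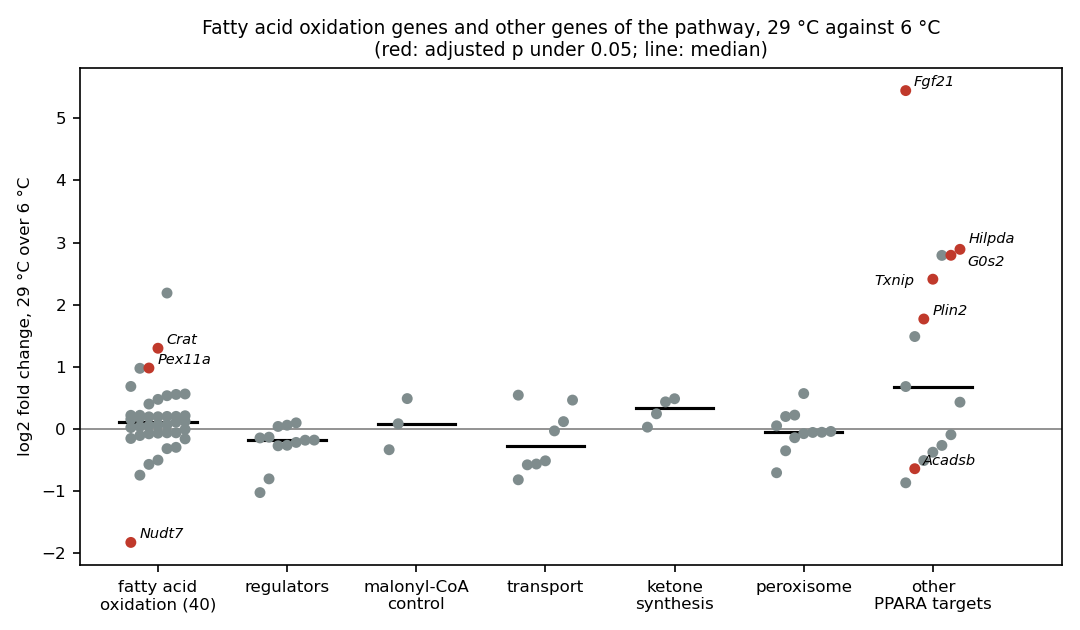
Log2 fold change at 29 °C against 6 °C (vertical axis) of the 40 genes and of 6 lists of other genes of the pathway (1 point a gene, line at the median). Named red points passed an adjusted p of 0.05: Crat, Pex11a and Nudt7 among the 40, and Fgf21, Hilpda, G0s2, Txnip, Plin2 and Acadsb among the other PPARA targets.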

How the data were processed

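Per the labels' protocols, liver total RNA was depleted of ribosomal RNA and sequenced, in 12 libraries at 3 housing temperatures. The authors deposited raw counts per gene for 55421 genes, not normalized, in 1 table with gene symbols and Ensembl identifiers, per the file headers. STAR 2.6.1a, bcl2fastq, the build GRCm38 and DESeq2 1.44.0 are listed in the submitters' processing notes without a role.

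The deposited counts of all 12 libraries entered 1 robust quasi-likelihood fit in edgeR 4.0.16 (R 4.3.3), after TMM scaling and the default filterByExpr filter by temperature, leaving 9 residual degrees of freedom. Tests were two-sided, with Benjamini-Hochberg adjustment over the 15006 genes tested and a threshold of 0.05. The common biological coefficient of variation was 0.321. The split term marks the 4 libraries whose H2-Ea-ps level reached 1 CPM and leaves 8 residual degrees of freedom. The labels do not set these libraries apart, and they are no group of the study. Levels are CPM on TMM-scaled library sizes, and levels per kilobase use GENCODE vM21 exon lengths (GRCm38), where 54673 identifiers matched. Intervals are 95% intervals of the log2 fold change. Within each temperature, all pairs of libraries differed beyond sampling noise, with a chi-square of 12.8 to 144 per degree of freedom. The test was checked on simulated counts with 200 genes changed. Total counts lay between 7615585 and 19001126.

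The 40 genes and the other lists were chosen with earlier results of these data known. Values in all 12 libraries were given for genes called in any comparison, for the 4 highest and 4 lowest log2 fold changes of each comparison, and always for Cpt1a, Ehhadh, Pdk4, Cd36, Acadm, Fabp1 and Vnn1; other genes were given by role. Genes of the wider list were named when called or central to the pathway, after their values were seen. Some genes of that list are not reported here. Alternatives were other scalings (DESeq2 size factors, upper quartile, library sizes computed after removing mitochondrial genes and the 10 with the highest counts), no and stricter low-count filters, DESeq2 1.42.0, limma 3.58.1 voom with quality weights, the compared libraries only, the split term with and without library 11, the 8 libraries lacking H2-Ea-ps, and each library left out; leaving out libraries 3, 5 and 6 was chosen after seeing the data.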

Additional observations from a re-analysis of the deposited data

Results flagged for a closer look

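In 3 of 51 groups of 4 libraries examined (16 genes and the summed level at 3 temperatures), 1 library lay far from the other 3 by Dixon's criterion, and chance gives about 1 in 20. Hadhb in library 3 at 6 °C was 33.21 CPM, with the other 6 °C libraries at 19.8 to 21.9 CPM. Nudt7 in library 11 at 29 °C was 34.77 CPM, with the other 29 °C libraries at 23.0 to 23.6 CPM. The summed level of the 40 genes in library 5 at 22 °C was 8539 CPM, with the other 22 °C libraries at 7787 to 7911 CPM. This distance depended on the scaling, as the TMM scaling factor of library 5, 0.906, was the lowest of all libraries. As shares of the unscaled total counts, libraries 5 to 8 held 0.773%, 0.758%, 0.836% and 0.845%. Library 5 lay within the range of the others there, and Dixon's criterion was not applied to these shares.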

How the results depend on the processing

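Over 36 named gene results, 788 of 864 alternatives kept direction and side of the threshold, 46 lost a call, 25 gained one and 5 reversed, all 5 in changes that were not called. Phyh and Hadhb at 29 °C against 22 °C reversed to 0.38 and 0.010 without libraries 3, 5 and 6. With single libraries left out, Phyh in that comparison ranged over -0.34 to 0.026, and Cpt1a at 29 °C against 6 °C over -0.041 to 0.32. Counts of calls are given in the order 40 genes, wider list, all genes. For DESeq2, run without the low-count filter, all genes were 28569, against 15006 in the main fit. Genes that DESeq2's own default filtering left without an adjusted p were kept in that number as not called. At 29 °C against 6 °C (3, 6 and 379) they were 8, 17 and 1884 under the split term, 7, 15 and 1305 when library 11 was also left out, 8, 16 and 1504 in the 8 libraries lacking H2-Ea-ps, 6, 12 and 1161 with DESeq2, and 6, 12 and 1090 with limma voom. Without libraries 3, 5 and 6, the wider list had 3 and all genes 134. At 29 °C against 22 °C (0, 0 and 0) they were 2, 5 and 516, then 1, 1 and 100, then 11, 21 and 2594 for the first 3 of these settings, 2, 5 and 313 with DESeq2, and for all genes 5 with limma voom and 15 without a filter. At 6 °C against 22 °C (0, 0 and 5) the libraries lacking H2-Ea-ps gave 4, 8 and 1015, and DESeq2 gave 1 of the 40 and 160 of all genes. All genes there had 55 with the split term, 36 without library 11 too, 3 with the compared libraries only and 0 without libraries 3, 5 and 6. With each library left out, at 29 °C against 6 °C the counts ranged over 2 to 4, 1 to 8 and 41 to 439, at 29 °C against 22 °C over 0 to 1, 0 to 3 and 0 to 78, and at 6 °C against 22 °C over 0 to 0, 0 to 0 and 3 to 7. The count at 29 °C against 6 °C moved by over 1.5 times for all genes without library 3, 4, 9, 10, 11 or 12 and for the wider list without library 1, 2, 3, 4, 10, 11 or 12, with the lowest count of all genes without library 10. The 78 calls came without library 9. The settings that drop libraries test fewer samples, and the cause of the other shifts was not tested. No paired analysis was possible because the groups share no replicate numbers. All 40 genes lay above 3 counts in every library.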
